A study of Mus musculus with 62 samples.

Results

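Ethanol is cleared in 3 chemical steps. The 10 mouse genes described here encode enzymes of those steps or, for Acly, of another route to acetyl-CoA. Adh1 (the class I alcohol dehydrogenase), Adh5 (the class III enzyme, which also clears formaldehyde bound to glutathione), Cat (catalase) and Cyp2e1 (an ethanol-inducible cytochrome P450) oxidize or can oxidize ethanol to acetaldehyde. Aldh2 and Aldh1b1 (mitochondrial) and Aldh1a1 (cytosolic) oxidize acetaldehyde to acetate. Acss2 (nuclear and cytosolic) and Acss1 (mitochondrial) join acetate to coenzyme A, and Acly makes acetyl-CoA from citrate, so that Acss2 and Acly feed the pool from which histones are acetylated. Most ethanol is oxidized in the liver, and the brain receives acetate from the blood. In brain tissue catalase is usually named as a main route from ethanol to acetaldehyde. The 10 genes were taken by gene name from the 56415 genes of the count table.

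The libraries came from 16 male C57BL/6J mice, 8 to 10 weeks old, with no genetic change. A mouse received 2 g/kg ethanol (20% in saline) or saline by intraperitoneal injection, either 1 time (acute) or daily for 10 days (chronic), and tissue was taken 4 hours after the last injection. Each of the 4 conditions (acute saline, acute ethanol, chronic saline and chronic ethanol) had 4 mice, from which the cortex, the dorsal and ventral parts of the hippocampus (dHPC and vHPC) and those of the striatum (DS and VS) were dissected, giving 62 poly(A) RNA-seq libraries in 20 groups. Groups held 3 mice, except acute ethanol dHPC and chronic ethanol DS with 4. The saline mice were injected too, so the comparison is of ethanol with an injection of its vehicle.

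Libraries of cortex and dHPC came from a kit that does not mark strand and held 43173748 to 71164766 counts. Libraries of vHPC, DS and VS came from a directional kit and held 8149628 to 46564992, the lowest in a library that was left out. The sequencer and the read length changed with the kit (batch 1 or 2 in the labels), and none of these can be told apart from region across these 2 sets, so levels were tested between regions only within a set. Chronic saline DS replicate 2 lacked any count on chromosomes 7, 8 and 9, on both sex chromosomes and on the mitochondrial genome, and was left out, which left 61 libraries and 2 chronic saline DS libraries. Genes of striatal projection neurons summed to 5081 to 10430 CPM (counts scaled to the size of the library) in the DS libraries and to 366 to 495 CPM in cortex. They reached 3068 CPM in 1 library of chronic saline dHPC. Some libraries also held marker genes of neighbouring tissue, which are given beside the results they touch. In such tissue, fewer cells of a type and less RNA per cell cannot be told apart.

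Stretches of sequence upstream of annotated start sites are printed for the pair of ethanol-oxidizing genes that were near the detection limit. They are also printed for 2 genes that were detected in every library. RefSeq promoter windows (table build GRCm38.p6) covering 250 bases before the start were matched exactly to GRCm39, and were given for 9 of the 10 genes. Only the bases outside each gene's own exons are printed, 5′ to 3′ on the gene's strand, with GC boxes (GGGCGG, either strand) and CCAAT boxes (CCAAT, either strand) in capitals. The lines are Adh1 at chr3:137983096-137983250 (plus strand), Cyp2e1 at chr7:140343482-140343651 (plus), Adh5 at chr3:138148604-138148827 (plus) and Acly at chr11:100418827-100419076 (minus).
Adh1: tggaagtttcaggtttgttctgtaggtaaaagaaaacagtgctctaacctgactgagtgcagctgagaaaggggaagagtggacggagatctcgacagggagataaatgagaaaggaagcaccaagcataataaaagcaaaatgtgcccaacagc
Cyp2e1: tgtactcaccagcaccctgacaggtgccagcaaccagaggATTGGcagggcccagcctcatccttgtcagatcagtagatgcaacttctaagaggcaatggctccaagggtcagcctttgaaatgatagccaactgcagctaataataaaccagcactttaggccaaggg
Adh5: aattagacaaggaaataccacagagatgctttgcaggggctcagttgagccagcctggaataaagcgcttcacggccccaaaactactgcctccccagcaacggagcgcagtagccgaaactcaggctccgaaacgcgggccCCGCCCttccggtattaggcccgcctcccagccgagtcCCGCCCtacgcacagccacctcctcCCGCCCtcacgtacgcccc
Acly: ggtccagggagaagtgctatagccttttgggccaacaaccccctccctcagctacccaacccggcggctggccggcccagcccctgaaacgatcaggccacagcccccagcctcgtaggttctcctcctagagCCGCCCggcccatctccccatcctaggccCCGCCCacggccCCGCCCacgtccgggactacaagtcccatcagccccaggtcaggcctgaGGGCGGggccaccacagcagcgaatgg

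The stretches differ in length, so their box counts are not like for like. The Adh1 stretch (155 bases, ending 96 bases before the start) held neither box. Its window lies inside the span of Adh1, which begins at 137966752. The Cyp2e1 stretch (170 bases, ending 81 bases before the start) held 1 CCAAT box. The Adh5 stretch (224 bases) held 3 GC boxes and the Acly stretch (250 bases) held 4. In the window bases not printed, Cyp2e1 held another CCAAT box and a TATA box core (TATAAA), and Adh1 held no GC or CCAAT box. Adh5 has another RefSeq window, upstream at chr3:138142711-138142960 (plus), which held no GC or CCAAT box. Among all 32851 RefSeq promoter windows of 250 bases, 32.7% held a GC box and 33.8% a CCAAT box. In the whole windows, GC content was 44.8% for Adh1 and 48.8% for Cyp2e1, below the median of 52.4% over all promoters. It was 63.6% for the Adh5 window printed and 45.2% for the upstream one, 68.8% for Acly, 64% for Acss2, 62% for Cat and 61.6% for Acss1. Aldh1b1 was at 53.2%, and the 2 windows of Aldh1a1 were at 42.8% and 46.4%. The core of the sterol regulatory element (TCACNCCAC, either strand) was in 1.05% of all windows and in none of those of the 9 genes. These matches describe letters only.

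Coordinates are on GRCm39. On chromosome 3, Adh1 (ENSMUSG00000074207) spans 137966752 to 137996459 and Adh5 (ENSMUSG00000028138) spans 138148854 to 138161260. On chromosome 2, Cat (ENSMUSG00000027187) spans 103284194 to 103315505, Acss1 (ENSMUSG00000027452) 150460025 to 150510420 and Acss2 (ENSMUSG00000027605) 155359868 to 155427644. Cyp2e1 (ENSMUSG00000025479) lies on chromosome 7 at 140343652 to 140354900, Aldh1b1 (ENSMUSG00000035561) on chromosome 4 at 45799022 to 45804604, and Aldh2 (ENSMUSG00000029455) on chromosome 5 at 121704090 to 121731887. Aldh1a1 (ENSMUSG00000053279) lies on chromosome 19 at 20470079 to 20620829 and Acly (ENSMUSG00000020917) on chromosome 11 at 100367179 to 100418826. Exons of Gss, Ggt7 and Acss2os on the other strand overlap parts of the Acss2 exons. Exons of other genes on the other strand also overlap parts of those of Adh1, Adh5, Aldh2, Aldh1a1, Acss1 and Acly. In cortex and dHPC, whose kit does not mark strand, reads in these overlaps cannot be told apart.

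Levels were first compared between genes as CPM per kilobase of exon. Acly was the most abundant of the 10 in every region, from 26.0 in dHPC to 42.9 in DS. Aldh2 and Cat followed, with Aldh2 between 16.1 and 17.6 and Cat between 11.9 and 18.1. Aldh2 lay above Cat in all 12 libraries of cortex, of DS and of VS. In dHPC and vHPC the order of this pair was not fixed, as Cat lay above Aldh2 in 6 of 13 and 7 of 12 libraries.

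The middle of the order shifted with region. Aldh1a1 came just after Cat and Aldh2 in cortex (7.84), dHPC (13.4) and vHPC (11.7), but behind Adh5 in DS (5.10, with Acss1 above it in 6 of 12 libraries) and behind Adh5, Acss1 and Aldh1b1 in VS (3.31), where it lay above Acss2 in 6 of 12 libraries. Adh5 lay between 6.06 and 7.75 in all 5 regions. Acss1 was between 4.66 and 7.17 and Acss2 between 3.18 and 5.29, with Acss2 above Acss1 in 11 of 12 cortex libraries and Acss1 above Acss2 in all 13 libraries of dHPC. Aldh1b1 was lowest of these 8 in cortex (2.56), dHPC (4.34) and vHPC (4.07).

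The exon length used matters for Acss2, whose exons join to 10163 bases while its isoform with the most counts, Acss2-201, has 2931. With the length and counts of the top isoform instead, 21 of the 50 ranks were kept. On that scale Acss2 lay above Acss1 in all 5 regions, Cat lay behind Adh5, Acss2 and Aldh1a1 in cortex, and Adh5 came next after Acly in vHPC, DS and VS. On that scale too Acly was highest and Adh1 and Cyp2e1 were lowest in all 5 regions. Acly reached the 92.5th to 96.2nd percentile of the genes that passed the low-count filter.

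Adh1 and Cyp2e1 were at the limit of detection. The median count of Adh1 was 6 over the 61 libraries, and it was at 0 in 8 of them. Cyp2e1 had a median of 0 counts, was at 0 in 31 libraries and did not exceed 3 counts in 39. In vHPC all acute saline libraries had 0 Cyp2e1 counts, which allows up to 3 counts each at this depth. The highest Cyp2e1 count was 24, in chronic saline dHPC replicate 2. Tests of these 2 genes therefore carry little information, and in several comparisons they did not pass the filter of 5 counts in 2 libraries of a group.

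**Figure D1:**
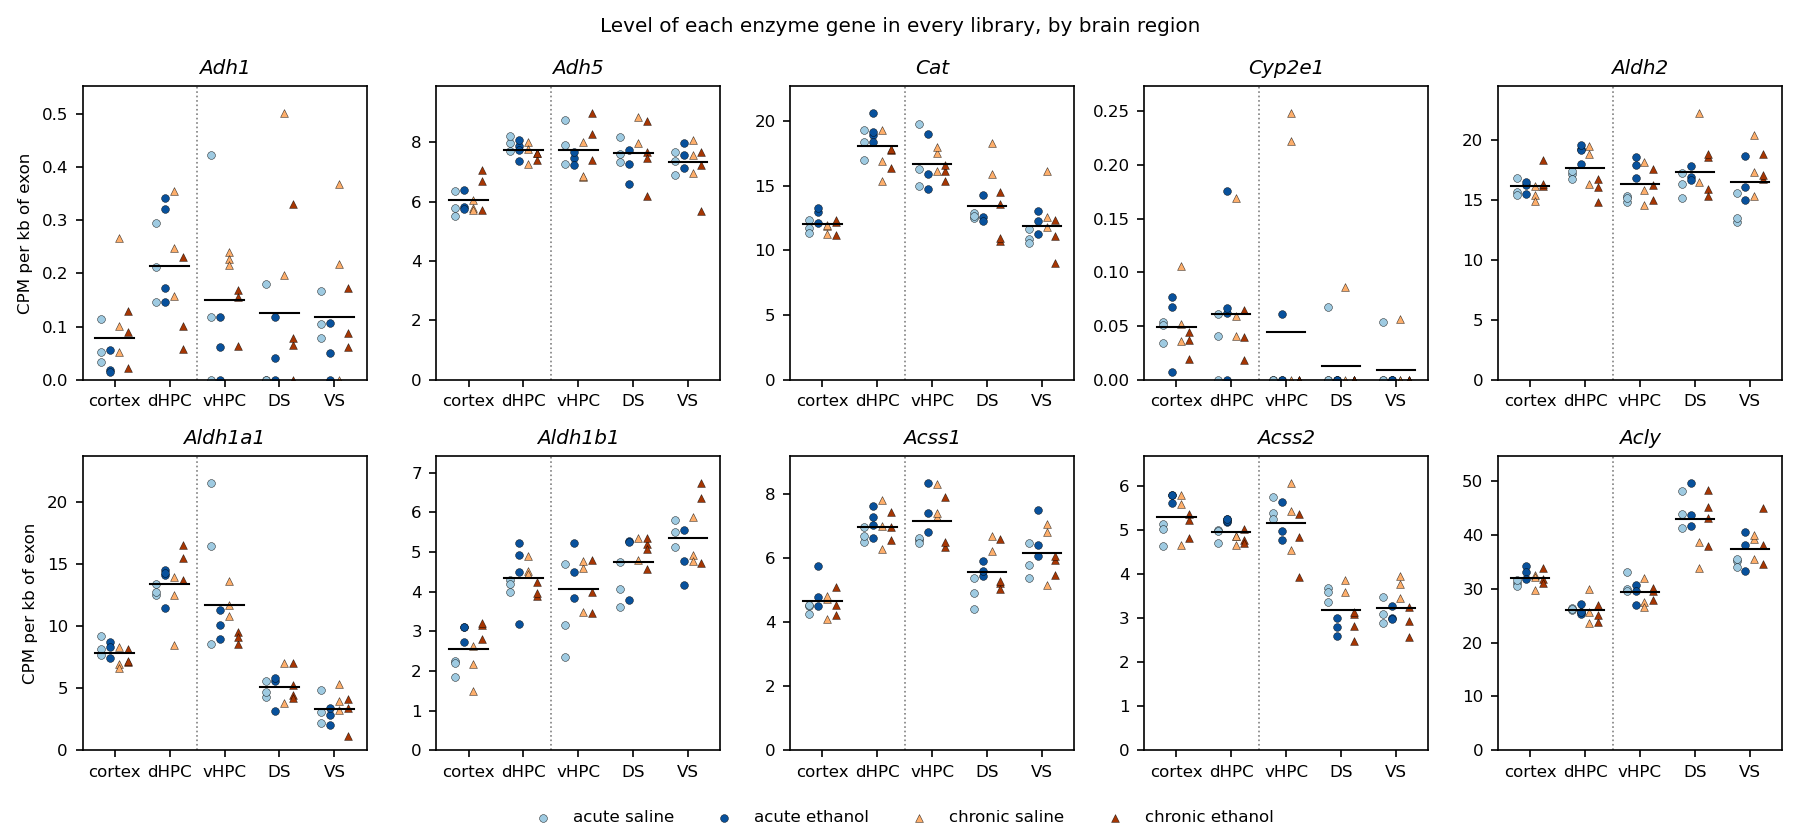
Level of each gene as CPM per kilobase of exon in each of the 61 libraries, with colour and marker for the 4 conditions and a bar for the mean of a region; the dotted line separates the 2 library kits. Among vHPC, DS and VS, which share a kit, mean Aldh1a1 runs from 3.31 (VS) to 11.7 (vHPC) CPM per kilobase. Mean Aldh2 in these regions lies between 16.3 and 17.3.

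Most of the 10 genes differed between cortex and dHPC, as did most genes: 62.8% of the 27846 tested passed a false discovery rate (FDR) of 0.1, against 9 of the 10. In this comparison (edgeR quasi-likelihood F test, paradigm and treatment as covariates) 7 were higher in dHPC. Aldh1a1, an enzyme that also makes retinoic acid, was at 38.7 ± 3.85 CPM (SD, n = 12) in cortex and 66.1 ± 9.79 (n = 13) in dHPC, a log2 difference of 0.78. Aldh1b1 was higher by 0.78, Cat by 0.59, Acss1 by 0.59, Adh5 by 0.37, Aldh2 by 0.14 and Adh1 by 1.499. Acly was lower by −0.29 (168 ± 6.83 CPM in cortex and 137 ± 8.37 in dHPC) and Acss2 by −0.09. Neighbouring tissue differed too. The sum of 9 choroid plexus marker genes had a median of 15.4 CPM in cortex and 2257 in dHPC. That of 8 fibroblast marker genes had a median of 97.6 and 164. The part of such tissue in these differences was not tested.

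Within the other kit, DS differed from vHPC in 6 of the 10 genes (57.8% of all genes tested). Aldh1a1 was at 57.8 ± 19.1 CPM in vHPC and 25.2 ± 5.90 in DS, lower by −1.15. The vHPC median was 51.7 CPM, and its highest library, in acute saline, read 106. Acute saline vHPC replicates 2 and 4, described below, held marker genes of neighbouring tissue, whose part was not tested. Acss2 was at 52.5 ± 5.92 in vHPC and 32.3 ± 4.60 in DS, lower by −0.69, and Acly was at 156 ± 10.4 and 227 ± 24.5, higher by 0.53. Acss1 (−0.35) and Cat (−0.30) were lower and Aldh1b1 (0.23) higher in DS. VS differed from vHPC in the same 6 genes and directions (53.8% of all genes), with −1.82 for Aldh1a1, −0.69 for Acss2, 0.33 for Acly, −0.50 for Cat, −0.22 for Acss1 and 0.39 for Aldh1b1.

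The 2 striatal regions were closer to each other. VS was below DS for Aldh1a1 (−0.66), Cat (−0.20) and Acly (−0.18), and above it for Aldh1b1 (0.18) and Acss1 (0.15), 5 of 9 tested genes against 37.8% of all genes. Aldh1b1 and Acss1 had an FDR of 0.094 and 0.097. With DESeq2 3 were called, and with saline libraries only 0. Adh5 and Aldh2 passed no test between vHPC, DS and VS, with estimates of −0.09 to 0.09.

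Acute ethanol in cortex was followed by a higher level of Aldh1b1, a mitochondrial aldehyde dehydrogenase. Its saline libraries held 5.16, 4.26 and 5.06 CPM, and its ethanol libraries held 7.16, 6.28 and 7.16. The 3 ethanol libraries lay above the 3 saline libraries. The log2 fold change was 0.50 (SE 0.12) with an adjusted p of 0.069 by edgeR, and Aldh1b1 was 1 gene called of 10, where 1.99% of 25905 genes were (0.818% higher and 1.17% lower). No fit that left out 1 library called it (FDR 0.110 to 0.269), although its estimate stayed positive in 6 of 6, and a fit of all 4 cortex groups gave an adjusted p of 0.571.

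Acss2 in acute cortex read 52.2, 47.2 and 51.1 CPM with saline and 58.8, 58.9 and 57.1 with ethanol, so the groups did not overlap. The difference was 0.21 (SE 0.06) with an adjusted p of 0.133 by edgeR and 0.060 by DESeq2, and only the second passes 0.1. Acly, at 163, 160 and 166 CPM against 180, 174 and 168, did not overlap either (0.09, edgeR adjusted p 0.511). These were the 3 genes whose groups were apart (every ethanol value on 1 side of every saline value), 3 of 10 where 17.6% of genes were.

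In the same acute cortex libraries, the sum of 8 fibroblast marker genes was 129, 126 and 116 CPM with saline and 85, 90 and 82 with ethanol. The myelin list of 10 genes read 2265, 1995 and 2160 against 3109, 3071 and 2338. Of the 8 fibroblast genes 5 fell (Col1a1, Col1a2, Col3a1, Igf2 and Igfbp2) and of the 10 myelin genes 5 rose (among them Mobp, Cnp, Mog and Mbp). The remaining genes of both lists are not named here. Over all genes tested in acute cortex, 1.17% were called lower and 0.818% higher. Genes of the same library share its depth and dissection. Within cortex groups, over 12 libraries, the Pearson r with the myelin list was 0.82 for Aldh1b1 and 0.61 for Acss2. With the fibroblast list it was −0.40 and −0.09. The part of these lists in the Aldh1b1 and Acss2 values was not tested.

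Acute ethanol in DS went with a lower level of Acss2, the enzyme that makes acetyl-CoA from acetate outside mitochondria. It fell from 37.4, 36.6 and 34.3 CPM with saline to 26.3, 30.6 and 28.5 with ethanol, with no overlap. The log2 fold change was −0.36 (SE 0.10) and the adjusted p was 0.064 by edgeR and 0.045 by DESeq2. Acss2 was 1 of 8 tested members called, where 5.15% of 20495 genes were (2.05% higher and 3.1% lower). In the fits that left out 1 library the fold change was −0.42 to −0.31 with FDR 0.074 to 0.203, and 2 of 6 called it. A fit of all 4 DS groups gave an adjusted p of 0.169 by edgeR.

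The striatal dissections also differed in neighbouring tissue. The sum of 9 genes of pallial (cortical and hippocampal) excitatory neurons was 1866, 1898 and 2180 CPM in the acute saline DS libraries and 1392, 1487 and 1433 in the ethanol libraries, and 8 of the 9 fell (among them Fezf2 with a log2 change of −2.46 and Neurod6 with −3.57). The 10 striatal projection genes read 6679.9, 8101 and 7198 CPM with saline against 9271, 8998 and 9267, and 8 of 10 rose. Over all genes tested in acute DS, 3.1% were called lower and 2.05% higher. No gene of either list was at 0 in every library of a DS group. Acss2 averaged 52.5 CPM in vHPC and 32.3 in DS, which share a kit. Within DS groups, Acss2 and the pallial list had a Pearson r of −0.15 over 12 libraries. Genes of the same library share its depth and dissection. The part of the pallial tissue in the Acss2 difference was not tested.

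Acss1 in acute DS read 22.2, 18.3 and 20.3 CPM with saline and 22.4, 24.4 and 23.1 with ethanol, a pair of groups that just did not overlap (0.19, edgeR adjusted p 0.484). With Acss2 it made 2 of 8 members apart, where 21.2% of genes were. Aldh1b1 was at 10.9, 9.36 and 8.33 against 8.72, 12.2 and 12.1 CPM, and overlapped (0.20, edgeR adjusted p 0.660). Cat was at 32.7, 33.6 and 33.0 against 37.3, 32.9 and 32.1 (0.02, edgeR adjusted p 0.958).

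**Figure D2:**
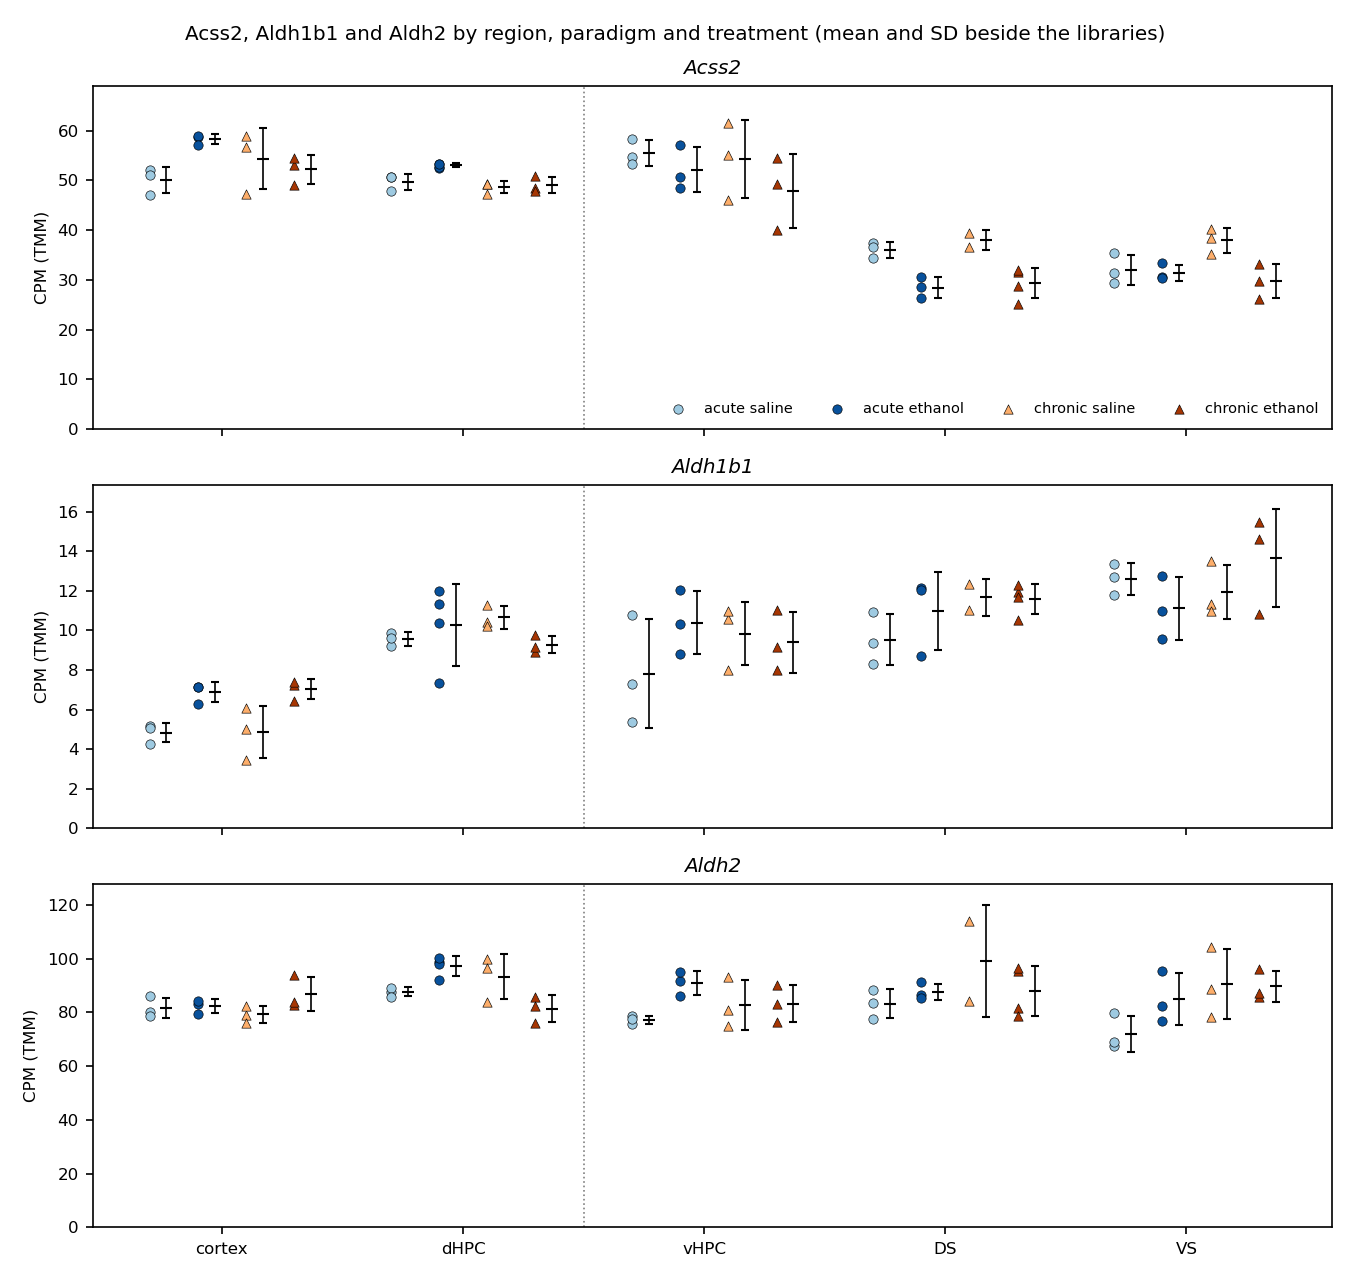
Acss2, Aldh1b1 and Aldh2 in CPM for each library by region, paradigm and treatment, with the mean and SD of a group beside its libraries. In acute DS the 3 ethanol values of Acss2 (26.3 to 30.6) lie under the 3 saline values (34.3 to 37.4), and in acute cortex the Aldh1b1 ethanol values (6.28 to 7.16) lie over the saline values (4.26 to 5.16).

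In dHPC no member was called after acute ethanol (0 of 10, 0.042% of genes called, 0.0267% higher and 0.0153% lower). Aldh2 read 87.7, 89.2 and 85.9 CPM with saline and 98.6, 92.0, 98.2 and 100.1 with ethanol (0.15, edgeR adjusted p 0.523). Acss2 read 47.8, 50.8 and 50.6 against 53.4, 52.6, 52.8 and 53.4 (0.09, edgeR adjusted p 0.715). Both pairs of groups were apart, 2 of 10 where 8.12% of genes were. Over all genes, 2065 had an unadjusted p under 0.05 and DESeq2 called 281, with none of the 10 members among them.

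In vHPC none of 8 tested members was called (0% of 19916 genes with edgeR, 2374 at an unadjusted p under 0.05, and 578 with DESeq2, which called 0 members). Aldh2 was at 75.8, 78.6 and 77.5 CPM with saline and 91.7, 94.9 and 86.1 with ethanol (0.23, edgeR adjusted p 0.342). Acss1 was at 27.1, 27.3 and 26.7 against 30.7, 28.2 and 34.5 (0.20, edgeR adjusted p 0.494). Both were apart, 2 of 8 where 17.7% of genes were.

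Aldh1a1 in vHPC varied widely between the acute saline libraries. It read 106, 81.4 and 42.4 CPM in acute saline replicates 2, 4 and 6 and 49.99, 44.3 and 55.9 with ethanol (−0.62, edgeR adjusted p 0.426). Without saline replicate 6 the change was −0.92 with an adjusted p of 0.065 by edgeR. Without replicates 2 and 4, an alternative chosen after seeing the data that leaves 1 saline library, it was 0.23. Replicate 2 held thalamic marker genes at 922 CPM, where the other vHPC libraries held 77 to 240, and replicate 4 held dopaminergic marker genes at 109 CPM, where the others held 4 to 11. Th, Slc6a3 and other genes of that list mark midbrain dopamine neurons, in which Aldh1a1 is known to be expressed. The dentate granule neuron list read 263, 245 and 103 CPM in the saline replicates and 426, 349.99 and 529 with ethanol. Within vHPC groups, over 12 libraries, Aldh1a1 had a Pearson r of 0.76 with the dentate list, 0.48 with the thalamic list and 0.24 with the dopaminergic list. The part of this tissue was not tested.

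In acute VS no member was called or apart, 0 of 8, where 0.0399% of genes were called and 12.3% were apart. Over all genes, 1466 had an unadjusted p under 0.05 and DESeq2 called 178, with 0 members. The largest estimate of the 8 was that of Aldh1a1 (−0.28, 10.8, 24.03 and 15.1 CPM against 9.96, 14.2 and 16.9). Aldh2 read 79.6, 67.4 and 69.1 against 82.3, 95.5 and 76.9 (0.23, edgeR adjusted p 0.726).

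**Figure D3:**
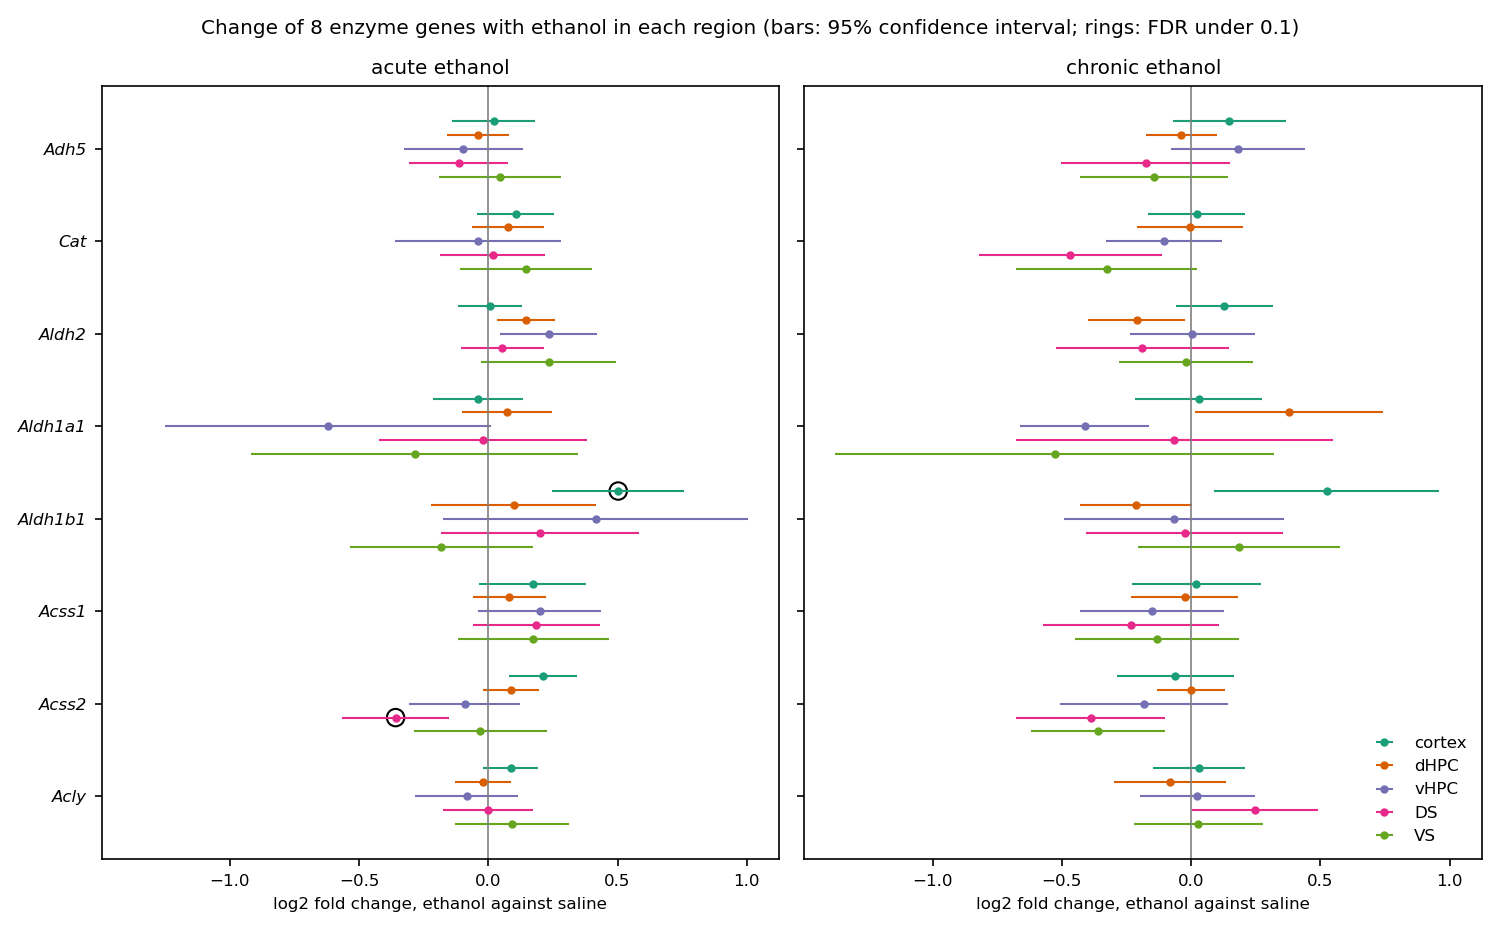
Log2 fold change of 8 genes (Adh1 and Cyp2e1 are left out for their low counts) with ethanol in each region, acute on the left and chronic on the right, with 95% confidence intervals from edgeR and rings at an FDR under 0.1. Only Aldh1b1 in acute cortex (0.50) and Acss2 in acute DS (−0.36) carry a ring.

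After chronic ethanol edgeR called no tested member in any region, with 10 members tested in cortex, dHPC and vHPC and 9 in DS and VS. Without the low-count filter it called 1, Aldh1a1 in vHPC, beside 790 of 29649 genes in that fit. With the filter, the share of all genes called by edgeR was 0% in cortex, dHPC, DS and VS and 0.0555% in vHPC. At an unadjusted p under 0.05 the counts of genes were 1495 in DS, 1884 in vHPC, 2023 in VS, 2136 in dHPC and 2656 in cortex. DESeq2 called 154, 214, 364, 223 and 156 genes in the same order, and 0 of the members in each.

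Acss2 was lower on average with chronic ethanol in both striatal regions. In DS it read 39.4 and 36.6 CPM with saline and 31.5, 32.0, 28.8 and 25.3 with ethanol (−0.39, SE 0.13, edgeR adjusted p 0.522). In VS it read 35.3, 38.4 and 40.3 against 33.1, 29.8 and 26.2 (−0.36, SE 0.12, edgeR adjusted p 0.367). Both pairs of groups were apart. In chronic DS it made, with Cat, 2 of 9 members apart where 17.2% of genes were, and in chronic VS 1 of 9 where 16.1% were. The pallial list read 1939 and 2006 CPM in chronic saline DS and 1296 to 1656 with ethanol.

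Cat in chronic DS was at 41.6 and 47.8 CPM with saline and 38.0, 28.1, 35.6 and 28.7 with ethanol (−0.47, edgeR adjusted p 0.541). The choroid plexus list of 9 genes was at 1977 and 7293 CPM in those saline libraries and at 3152, 28, 2951 and 24 in the ethanol libraries in that order. The fibroblast list was at 135 and 419 against 174, 33, 190 and 35. The 2 ethanol libraries with low values of both lists were the 2 with the lowest Cat, and the part of this tissue was not tested.

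Aldh1b1 in chronic cortex read 3.46, 6.08 and 5.02 CPM with saline and 7.25, 7.37 and 6.44 with ethanol (0.52, SE 0.19, edgeR adjusted p 0.443), an estimate near that of the acute comparison. The chronic and acute groups are separate mice. Aldh2 in chronic cortex (79.1, 82.5 and 76.1 against 82.9, 83.7 and 94.0) was apart too, 2 of 10 where 18.3% of genes were. In chronic dHPC Aldh1b1 went the other way (10.4, 10.2 and 11.3 against 8.92, 9.76 and 9.15 CPM, −0.21, edgeR adjusted p 0.610) and was the 1 of 10 apart, where 14.2% were.

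In chronic vHPC, Aldh1a1 read 67.4, 57.9 and 53.4 CPM with saline and 47.0, 42.2 and 45.2 with ethanol (−0.41, SE 0.11, edgeR adjusted p 0.350). With Adh1 (6, 6 and 6 counts against 6, 6 and 2, apart as CPM) it made 2 of 10 apart, where 14.8% were. Without the filter on low counts its adjusted p by edgeR was 0.089. Cyp2e1 in these libraries had 6, 0 and 6 counts with saline and 0, 0 and 0 with ethanol, and no fold is given.

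Taking the 5 regions in 1 model, with region as a term and libraries of a mouse linked (limma-voom), Aldh2 rose with acute ethanol. Its change was 0.13 (SE 0.04, 95% interval 0.05 to 0.20) with an adjusted p of 0.067 by limma, 1 of 8 members tested where 3.08% of 18580 genes were called (1.85% higher and 1.23% lower). The estimates of the single regions were all positive, but the lowest, in cortex, was only 0.007. In cortex it was positive in 3 of 6 fits that left out 1 library. The joint estimate was 0.11 to 0.15 when 1 mouse was left out, with 2 of 8 such fits calling it. An exact permutation of the 4 and 4 mice gave p = 0.0286, the smallest that 70 regroupings allow, and an adjusted p of 0.323. By that permutation 1645 of 18580 genes had a p under 0.05, and 0 passed the FDR of 0.1. Aldh2 is known as the main enzyme that clears acetaldehyde. Its level lay between 67.4 and 95.5 CPM in acute VS libraries and between 85.9 and 100.1 in acute dHPC.

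Acss1 was also positive in the 5 regions with acute ethanol (0.08 in dHPC, 0.17 in cortex and VS, 0.19 in DS and 0.20 in vHPC), and its estimate was 0.13 with an adjusted p of 0.119 by limma. It passed when the mouse link was dropped (0.051). Aldh1b1 was at 0.20 (limma adjusted p 0.313, exact permutation p = 0.0286). The remaining 5 had estimates of −0.11 to 0.06.

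Over the 5 regions, chronic ethanol called 0 of 9 members, where 0.45% of 18454 genes were called. The lowest unadjusted p was that of Acss2 (−0.16, SE 0.06, limma adjusted p 0.245), followed by Adh1 (−0.93, adjusted p 0.328) and Cat (−0.12, adjusted p 0.408). Acss2 and Cat each had the smallest exact permutation p, 0.0286. By that permutation 936 of 18454 genes had a p under 0.05, and 0 passed the FDR of 0.1.

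Whether the response differed between acute and chronic exposure was tested as an interaction of paradigm and treatment. No member was called in any region, nor in all regions together, and 0% of genes passed in each of these 6 tests by edgeR or limma. At an unadjusted p under 0.05 were 876 genes in DS, 965 in VS, 1202 in dHPC, 2174 in cortex, 2381 in vHPC and 1077 in all regions together. DESeq2 called 4, 4, 2, 21 and 417 genes in the 5 regions in that order, with 0 members in each. The smallest unadjusted p of a member was in dHPC, where Aldh2 differed by −0.36 (SE 0.09, adjusted p 0.969 by edgeR). There its acute estimate was 0.15 and its chronic one −0.21.

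Whether a response differed between regions was tested for all 20 pairs of regions and paradigms, chosen after the values were seen, without a term for the mouse. The Acss2 response to acute ethanol in DS was lower than that in cortex by −0.56 (SE 0.10, 95% interval −0.78 to −0.34, edgeR adjusted p 0.0055), where 4.64% of 20140 genes differed. It was lower than that in dHPC by −0.45 (SE 0.09, edgeR adjusted p 0.0165), where 3.91% of 20270 genes differed. DS differed from cortex and dHPC in kit, sequencer and read length, and each response was taken within its own batch. The part of the kit in these differences was not tested, nor that of the pallial tissue described for acute DS. Some mice gave libraries to both regions. No other member, and no other pair for Acss2, was called among the 20. With acute ethanol, the Acss2 response in VS minus that in DS was 0.32 (SE 0.14, edgeR adjusted p 0.927).

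Reads were also counted by transcript. In acute cortex Aldh1b1-201 rose (0.50, edgeR adjusted p 0.066), 1 of 50 member isoforms where 1.24% of isoforms were called, and DESeq2 also called Acss2-201 (0.20). In acute DS Acss2-201 (−0.38, edgeR adjusted p 0.076) and Acss2-202 (−0.37, adjusted p 0.09995) fell, 2 of 46 where 3.59% were. Reads in exons that these 2 isoforms share were counted for both. In acute vHPC 0 of 46 were called, as were 0 in 5 of the 6 fits that left out 1 library. Without acute saline replicate 6, 5 of 46 were called, beside 1241 of 105668 isoforms.

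Genes around the members were read from lists of pathways. Sterol regulatory element-binding protein (SREBP) targets, which make cholesterol and fatty acids and with which Acss2 and Acly are usually grouped, held calls in acute cortex and acute DS. In acute cortex 4 of 20 rose where 0.818% of all genes did (Idi1 by 0.34, Stard4 by 0.30, Fdft1 by 0.25 and Hmgcs1 by 0.23), and the list median was 0.15 against 0.00 over all genes. In acute DS 5 of 20 fell where 3.1% of all genes did, among them Fdps by 0.44, Sqle by 0.36, Hmgcs1 by 0.34 and Scd1 by 0.28, with a list median of −0.25. Hmgcs1, the enzyme that opens the sterol pathway, was in both sets, up in cortex and down in DS. The list median was −0.23 in acute vHPC and −0.15 in acute VS, −0.20 in chronic DS and −0.21 in chronic VS, with 0 of 20 called in each.

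Among other aldehyde dehydrogenases, Aldh1a3, a retinoic acid-making enzyme, fell in acute cortex by 0.79, 1 of 17 tested where 1.99% of all genes were called. Over all regions after acute ethanol it fell by 0.72 and Aldh1l1, an astrocyte enzyme of folate metabolism, rose by 0.23, 2 of 14 where 3.08% of all genes were called. In acute DS Aldh5a1 rose by 0.29, 1 of 15 where 5.15% were. Of the genes around acetyl-CoA, Pdk4 (which slows the making of acetyl-CoA from pyruvate) rose in DS by 0.49 and over all regions by 0.40. Acacb rose by 0.39 over all regions. Acaca, a first step of fatty acid synthesis, fell in DS by 0.25, so that 2 of 16 were called in DS and 2 of 15 over all regions. Slc16a1, which carries acetate and lactate across membranes, fell over all regions by 0.24, 1 of 5. The cytochrome P450 gene Cyp2j9 rose by 0.28 over all regions, 1 of 9. The lists of other alcohol dehydrogenases (2 of 6 tested), peroxide and glutathione genes (20 tested) and lysine acetyltransferases (10 tested) held 0 calls in acute cortex, in acute DS and in all regions together under either paradigm.

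Within groups, the members differed in how much their log2 level varied between mice. The SD was 0.11 for Acly, 0.12 for Adh5, Aldh2 and Acss2, 0.13 for Cat and Acss1, 0.22 for Aldh1b1, 0.37 for Aldh1a1 and 0.39 for Adh1, beside a median of 0.21 over 19344 genes. Members also varied together. Over 61 libraries, after removing group means, Adh5 and Aldh1a1 had r = 0.56, Adh5 and Cat 0.55 and Aldh1a1 and Cat 0.48. Aldh2 and Cat had 0.43, while Acss1 and Acly had −0.34. Genes of the same library share its depth and dissection, and the libraries differ in both. The correlations describe libraries and carry no test.

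The genes whose deviations were most like those of each member, among 19343, were Col17a1 for Adh1 (r = 0.73), Sec11c for Adh5 (0.70), Mvp for Aldh2 (0.74), Atp1b2 for Aldh1a1 (0.76), Gm21981 for Aldh1b1 (0.57), Epn3 for Cat (0.79), Pnldc1 for Cyp2e1 (0.65), Gpr37l1 for Acss1 (0.67), Nxpe3 for Acss2 (0.65) and Cntnap1 for Acly (0.71). The next were Fzd6, Sdhc, Odad2, 4632428C04Rik, Cdh18, Sh3d19, Calu, Mlc1, Nefl and Ogdh in the same order.

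Cat and Aldh2 went with the fibroblast list (Pearson r 0.74 and 0.68 over 61 libraries, Spearman rho 0.66 for both, 0.70 and 0.63 without the 2 libraries farthest from the median of the list). Adh1 did so as well, with 0.60. Aldh1a1 went with the dentate granule neuron list (0.61) and Adh5 did so too (0.58). Acss2 was lower where the striatal projection list was higher (−0.40). The part of neighbouring tissue in the spread between mice was not tested.

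**Figure D4:**
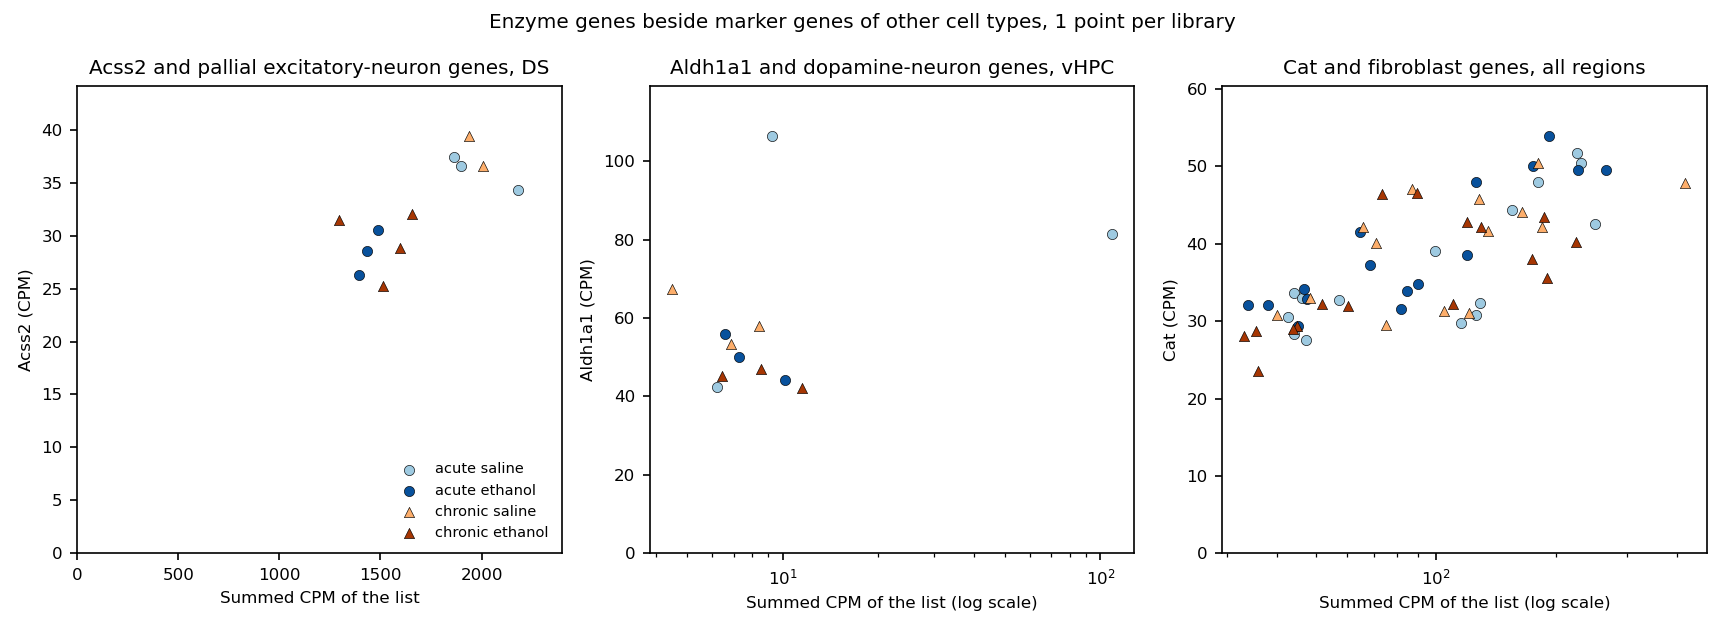
Acss2 against pallial excitatory-neuron genes in DS, Aldh1a1 against dopaminergic genes in vHPC and Cat against fibroblast genes in all regions, in CPM with 1 point per library and a log scale on the x axis of the middle and right panels. The acute saline vHPC library with 109 CPM of dopaminergic genes has 81.4 CPM of Aldh1a1.

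**Figure D5:**
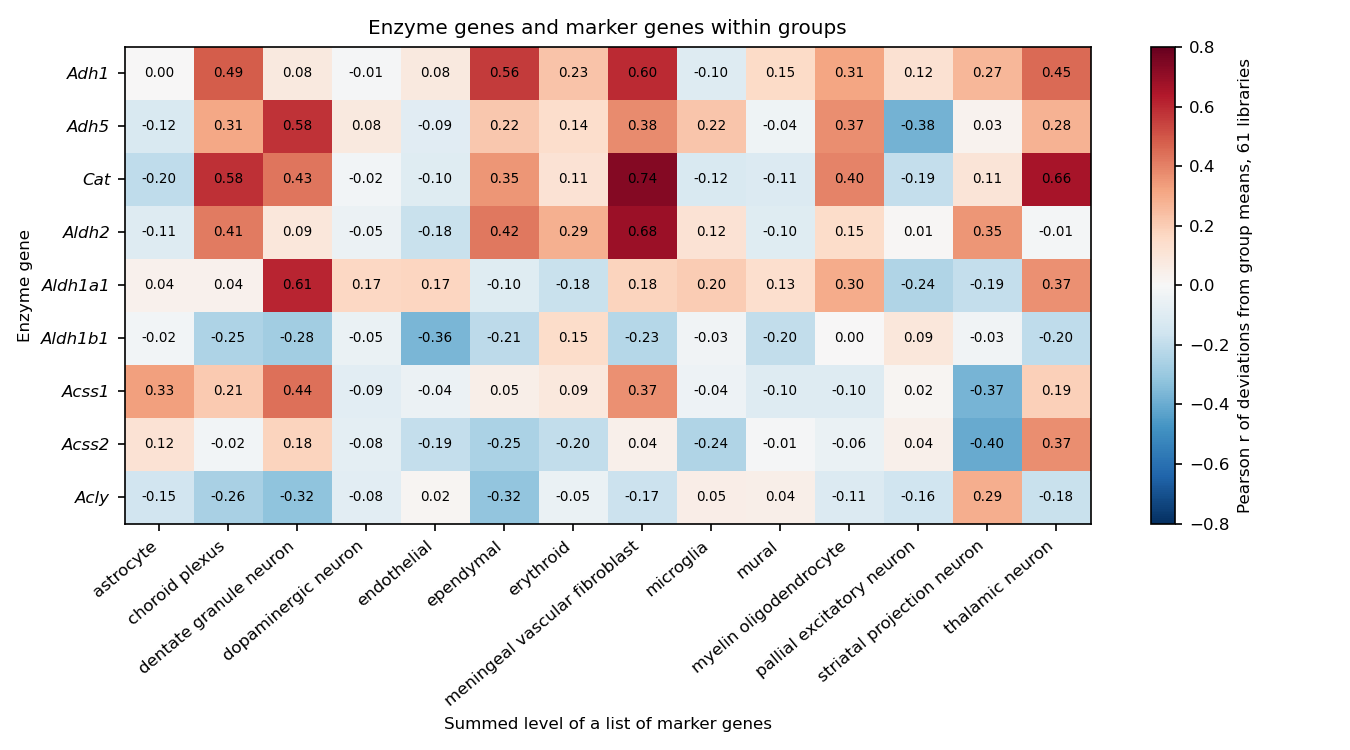
Pearson r of deviations from group means over 61 libraries between 9 members and 14 marker lists, printed in each cell and coloured from blue (negative) to red. Cat and Aldh2 are highest with the fibroblast list (0.74 and 0.68).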

How the data were processed

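Poly(A) RNA-seq libraries of 5 brain regions were analysed from the deposited gene and transcript count tables. The counts were made by the authors with Cutadapt 5.0, STAR 2.7.10a (GRCm39) and featureCounts 2.0.6, with 1 reverse-strand setting for both kits and with multi-mapping and overlapping reads counted, so shared reads count more than 1 time. Mates were counted singly. Library totals ranged from 8149628 to 71164766 counts, which limits precision for low genes, and floors of 3 counts cover counting error only.

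Groups came from the sample labels, and replicates are separate mice. Genes with at least 5 counts in 2 samples of a group were tested with edgeR 4.0.16 (TMM, quasi-likelihood F test, R 4.3.3) at a Benjamini-Hochberg FDR of 0.1 over all genes tested. CPM values are scaled by TMM. The 5 regions were joined with limma 3.58.1 (voom, mouse as a linked block) and an exact two-sided permutation over mice. DESeq2 1.42.0, other filters, a replicate block and leaving out single libraries were alternatives. Correlations used log2(CPM + 0.5) deviations from group means. Scripts were tested on simulated data. Every member is named; other genes were named where they passed the FDR within a listed pathway or marker list, or were the nearest in correlation. The members and lists were chosen with earlier results of these data known. Chronic saline DS replicate 2 was left out as truncated. Replicate numbers of saline and ethanol groups are different mice. Some genes of the lists are not reported here by name.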

Additional observations from a re-analysis of the deposited data

Results flagged for a closer look

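Of 19 sets of 4 values tested (10 genes in the 2 groups with 4 libraries, without Cyp2e1 in chronic ethanol DS, which was at 0 in all 4), of which chance would mark about 1 in 20, 2 held a value far from the others. Aldh1a1 in acute ethanol dHPC replicate 5 was at 56.7 CPM, under the other 3 libraries of its group. Acss1 in chronic ethanol DS replicate 5 was at 27.3 CPM, over the other 3. The Acss2 response to acute ethanol also differed between regions by a test of the difference, by −0.56 between DS and cortex and by −0.45 between DS and dHPC on the log2 scale (edgeR).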

How the results depend on the processing

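Most of the 29 member values past the threshold were level differences between regions (9 for dHPC against cortex, 6 for DS and 6 for VS against vHPC, 5 for VS against DS). The ethanol effects among them were Acss2 in acute DS, Aldh1b1 in acute cortex and Aldh2 in all regions after acute ethanol. None of the 29 changed direction under the alternatives run, while 61 of the 176 not past the threshold did under at least 1, none of them past the threshold there. Among these, Aldh1a1 in acute vHPC went from −0.62 to 0.23 without saline replicates 2 and 4. The count of members called in acute cortex was 1 as reported. There it was 2 with DESeq2, 2 without the low-count filter (beside 1488 of 37549 genes) and 0 in a fit of all 4 groups. In acute DS it was 1 (0 in the fit of all 4 groups). In chronic vHPC it was 1 without the filter (beside 790 of 29649 genes), and for VS against DS it was 3 with DESeq2 and 0 with saline libraries only. For all regions after acute ethanol it was 2 with no replicate block, 2 with edgeR and no mouse term, and 0 by exact permutation. Isoforms called in acute cortex were 2 with DESeq2, and 21 of 50 ranks were kept with the top isoform's length. Leaving out 1 library or mouse gave 0 to 0 members in acute cortex, 0 to 1 in acute vHPC, 0 to 1 in acute DS and 0 to 3 in all regions. For isoforms it gave 0 to 1 in acute cortex, 0 to 5 in acute vHPC and 0 to 2 in acute DS. The cause of these shifts was not tested. Same-numbered saline and ethanol mice had deviation correlations of −0.29 to 0.34. Libraries of 2 regions from the same mouse had only 0.006 to 0.12, so this check cannot tell whether the numbers pair mice. With the replicate block, acute cortex called 1 member (Aldh1b1, edgeR adjusted p 0.079) and 789 genes against 515. Counts of all genes called rose with DESeq2 after acute ethanol, from 515 to 957 in cortex, 11 to 281 in dHPC, 0 to 578 in vHPC and 8 to 178 in VS. Fits of all 4 groups called 0 genes in acute cortex and acute VS, 5 in acute dHPC and 283 in acute DS (1056 as reported), and 77 in chronic cortex and 117 in chronic DS (0 as reported). Depth limits Adh1 and Cyp2e1, whose median counts were 6 and 0.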
